A study of Homo sapiens with 4 samples.

Results

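The genes examined were 43 markers of endothelium and primitive blood, chosen by name from the 23615 gene symbols of the FPKM table. Earlier results of these data were known when they were chosen. They comprised 22 endothelial genes, 11 regulators and surface genes of blood cells, and 10 erythroid genes. FPKM are fragment numbers scaled to transcript length and to the mapped fragments of the library, so levels of different genes can be set side by side per length. Poly-A RNA was sequenced from unsorted day 14 cultures in 4 libraries, 2 biological replicates in each of 2 groups. ECsXAV were cardiomyocytes from hemogenic endothelial cells that had received VEGF from day 2 and 2 µM XAV-939, a Wnt/β-catenin inhibitor, from day 5. CPC were cardiomyocytes from cardiac progenitor cells, which the supplement draws with 1 µM XAV-939 on day 3, a step that the methods give for a subset of experiments. Both groups came from 1 human embryonic stem cell line, RUES2, after induction with activin A at 100 ng/ml and BMP4 at 5 ng/ml (A100/B5). In the paper's methods the VEGF medium of ECsXAV also held BMP4 and bFGF until day 5, a step absent from the cardiac protocol. Names of ECsXAV and CPC samples begin with different prefixes. The labels do not say what the prefixes mark or how the replicate cultures were separated, and anything that the prefixes mark cannot be told apart from the group. The p-values therefore measure only the spread between these libraries.

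Endothelial cells line blood vessels and are recognised by junction proteins such as VE-cadherin, by receptors for VEGF and angiopoietins, and by transcription factors of the ETS and SOX families. Hemogenic endothelium is the subset that gives rise to blood cells, under regulators that include TAL1, LMO2, GATA2 and RUNX1. The first blood of the embryo consists mainly of primitive erythrocytes, which carry the embryonic globins ε and ζ before fetal and adult globins replace them.

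The cultures expressed all 7 cardiomyocyte markers at 1 FPKM or more in each library. TNNT2, the troponin T of cardiac muscle, was at 2453 and 2309 FPKM in ECsXAV and at 2696 and 2988 FPKM in CPC. MYH6 and MYH7, the α- and β-myosin heavy chains, passed the criterion used below in opposite directions. MYH6 was at 855 and 857 FPKM in ECsXAV and at 2070 and 1901 in CPC, and MYH7 at 1011 and 931 against 147 and 194 FPKM (limma adjusted p 0.0358 and 0.0115). The 6 defining endothelial markers (PECAM1, CDH5, TEK, TIE1, CLDN5 and ERG) summed to 2.24 and 3.40 FPKM in ECsXAV and to 1.71 and 1.43 FPKM in CPC. All 22 endothelial genes summed to 40.3 and 45.5 FPKM in ECsXAV and to 39.0 and 37.7 in CPC, most of it EGFL7 and KDR. In such bulk RNA fewer cells of a type and less RNA per cell cannot be told apart. Total depth is unknown, but ECsXAV replicate 2 had 50.1% of the depth of its partner replicate, and the CPC libraries had 86.9% and 79.8% of that depth.

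In ECsXAV, 34 and 32 of the 43 genes stood at 0.1 FPKM or more, and in CPC 28 and 24 did. Of all 23615 symbols, 15532 and 15493 did so in ECsXAV and 15420 and 15234 in CPC. The level of 1 FPKM was met by 11 and 13 of the 43 genes in ECsXAV, by 12 and 11 in CPC and by 8 in every library. Of all symbols, 12208 and 12236 met it in ECsXAV, 12240 and 12070 in CPC and 11451 in every library. PTPRC, the leukocyte antigen CD45, and HBB, the adult β-globin, were listed at 0 in all 4 libraries. A further 4 genes (VWF, CLDN5, MYB and GFI1B) stayed under 0.1 FPKM throughout.

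**Figure D1:**
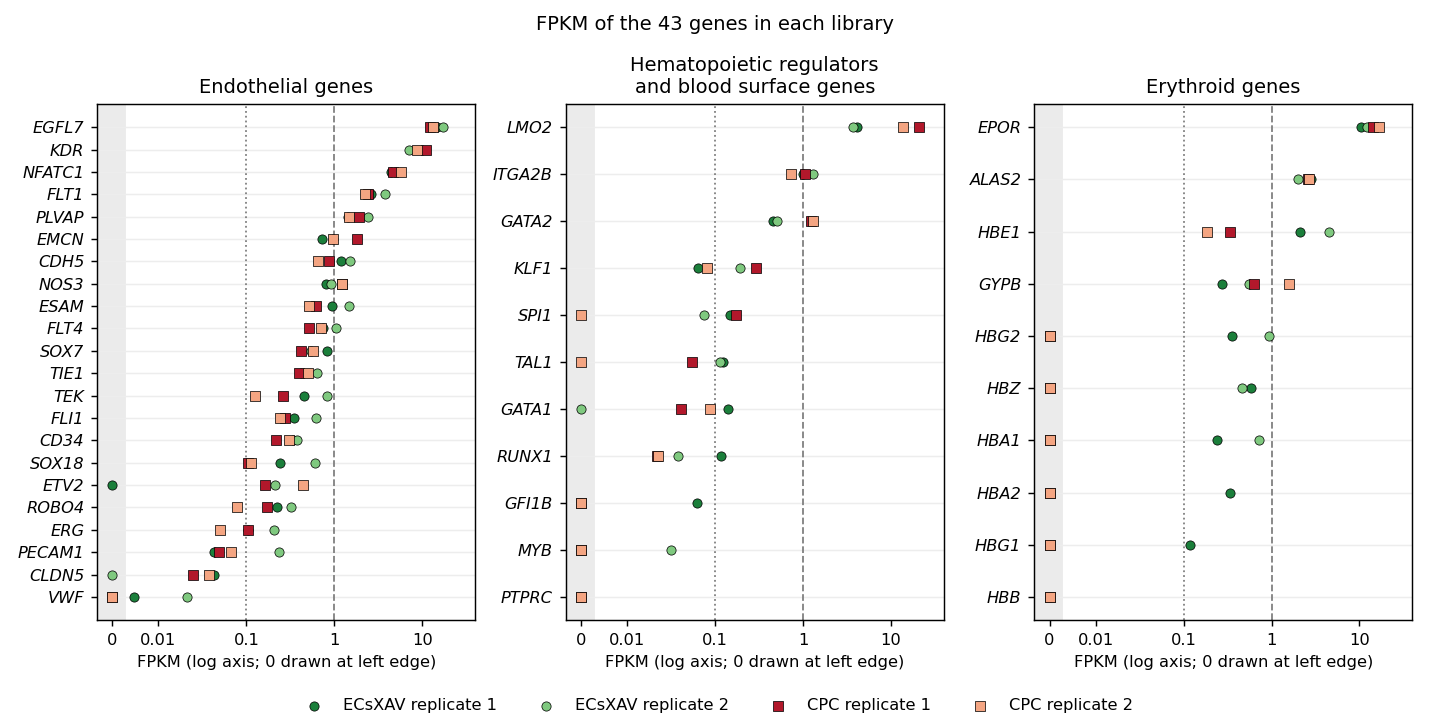
FPKM of each gene (log axis, with 0 drawn in the grey strip at the left edge) in the 4 libraries, in 3 panels by role. Dotted and dashed lines mark 0.1 and 1 FPKM. 8 genes lie at 1 FPKM or more in every library, and the CPC points of LMO2 lie well to the right of its ECsXAV points.

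By the mean of log2(FPKM + 1), 29 genes were higher in ECsXAV, 12 were higher in CPC and 2 were at 0. Of all 23615 genes, 9723 were higher in ECsXAV and 9013 in CPC. The 2 groups did not overlap for 23 of the 43 genes, with ECsXAV above for 17 and CPC above for 6. Over all 23615 genes ECsXAV lay above for 4623 and CPC for 4117. Among the 17 genes with a mean of 0.1 to 1 FPKM, ECsXAV lay above for 10 (58.8%) and CPC above for 2 (11.8%), where 29.6% and 22.1% of all 3264 genes of that range did so. Among the 13 genes with a mean of at least 1 FPKM, 4 lay above in each group (30.8%), beside 25.4% of all genes for ECsXAV and 24.4% for CPC. These are counts without a test.

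The 13 genes with a mean of at least 1 FPKM were tested with limma together with all 12398 genes of that level. The criterion was a Benjamini-Hochberg adjusted p under 0.05 and a change over 2-fold on the log2(FPKM + 1) scale, CPC minus ECsXAV. This scale understates changes of low genes. Of the 13 genes, 1 (LMO2) passed, higher in CPC, beside 2.15% of all genes tested in either direction and 0.71% higher in CPC, and 3 (LMO2, HBE1 and EPOR) had an unadjusted p under 0.05, as did 18.2% of all genes tested. Over the 13 genes the median log2 fold change was 0.099, beside -0.0045 over all genes. For any gene alone, 2 against 2 libraries allow no p under 0.333 in an exact permutation test (two-sided).

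**Figure D2:**
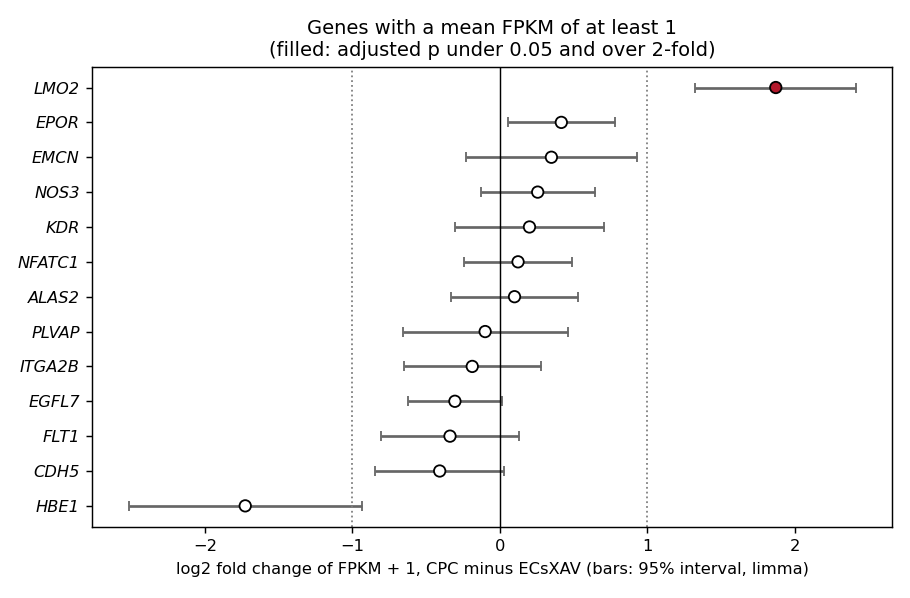
Log2 fold change of FPKM + 1 (CPC minus ECsXAV) with its 95% interval from limma for the 13 genes tested. LMO2 lies at 1.87 and is filled because it passed the criterion, and HBE1 lies at -1.73 and did not.

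Among the endothelial genes, 11 of 22 lay above in ECsXAV without overlap, 2 lay above in CPC and 9 overlapped. Among the 8 with a mean of at least 1 FPKM, 3 lay above in ECsXAV and 2 in CPC (25.4% and 24.4% of all genes). Among the 11 at 0.1 to 1 FPKM, 7 lay above in ECsXAV and 0 in CPC (29.6% and 22.1% of all genes). None of the 8 tested passed the criterion with limma, and none had an unadjusted p under 0.05, as did 18.2% of all genes tested. Over these 8 genes the median log2 fold change was 0.01. CDH5, the VE-cadherin of endothelial junctions, was at 1.19 and 1.49 FPKM in ECsXAV and at 0.875 and 0.649 in CPC. Both ECsXAV libraries lay above both CPC libraries, but the log2 fold change of -0.41 (SE 0.17) had an adjusted p of 0.301 in limma. PECAM1, the adhesion molecule CD31, was at 0.0425 and 0.233 FPKM in ECsXAV and at 0.0490 and 0.0666 in CPC. These PECAM1 values stood in the ratio of 4, 11, 4 and 5 reads, and the high one came from ECsXAV replicate 2 alone. GENCODE release 44 on GRCh37 gave no position for PECAM1. Whether the genome build affected its values, and with them the sum of defining markers, was not tested.

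Neither of the VEGF receptors tested passed the criterion. KDR, the main signalling receptor, was at 9.80 and 7.06 FPKM in ECsXAV and at 10.8 and 8.69 in CPC, so the groups overlapped (log2 fold change 0.20, 95% interval -0.30 to 0.70, limma adjusted p 0.652). FLT1, a receptor that also binds VEGF as a decoy, was at 2.62 and 3.80 FPKM in ECsXAV and at 2.38 and 2.21 in CPC (log2 fold change -0.34, limma adjusted p 0.415). FLT4, the receptor of lymphatic growth factors, was at 0.750 and 1.05 against 0.513 and 0.707 FPKM. FLT1 and FLT4 did not overlap between the groups, with ECsXAV above. TEK, the angiopoietin receptor TIE2, was at 0.446 and 0.831 FPKM in ECsXAV and at 0.263 and 0.124 in CPC, again without overlap. Its relative TIE1 overlapped, at 0.416 and 0.634 against 0.394 and 0.506 FPKM.

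Of the transcription factors, SOX18 was at 0.240 and 0.600 FPKM in ECsXAV and at 0.104 and 0.113 in CPC, in the ratio of 8, 10, 3 and 3 reads. FLI1, an ETS factor, was at 0.347 and 0.620 against 0.274 and 0.240 FPKM. Both lay above in ECsXAV. SOX7, at 0.825 and 0.538 against 0.414 and 0.564 FPKM, and the ETS factor ERG, at 0.103 and 0.206 against 0.104 and 0.0504 FPKM, overlapped while higher on average in ECsXAV. ETV2, the ETS factor that starts the hemato-endothelial program, was listed at 0 and at 0.210 FPKM in ECsXAV and at 0.162 and 0.440 in CPC. Its values stood in the ratio of 0, 3, 4 and 10 reads and overlapped. NFATC1, a factor of endocardium, was at 4.41 and 4.89 against 4.66 and 5.68 FPKM, also with overlap (log2 fold change 0.12, limma adjusted p 0.711).

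The secreted and surface genes spanned the widest range. EGFL7, an endothelial matrix protein, was the highest endothelial gene at 14.6 and 16.9 FPKM in ECsXAV and 12.0 and 13.1 in CPC (log2 fold change -0.31, limma adjusted p 0.294). ESAM, a junction protein, was at 0.948 and 1.46 against 0.624 and 0.509 FPKM, and ROBO4, a guidance receptor of vessels, at 0.224 and 0.322 against 0.172 and 0.0779 FPKM. CD34, a surface sialomucin of endothelium and blood progenitors, was at 0.337 and 0.373 against 0.215 and 0.305 FPKM. For these genes ECsXAV lay above without overlap. EMCN, an endothelial sialomucin, at 0.731 and 0.964 against 1.79 and 0.975 FPKM, and NOS3, the endothelial nitric oxide synthase, at 0.805 and 0.916 against 1.23 and 1.21 FPKM, lay above in CPC without passing the criterion. PLVAP, a protein of endothelial diaphragms, overlapped at 1.44 and 2.39 against 1.91 and 1.47 FPKM. VWF, the clotting factor stored by endothelium, was listed at 0 in both CPC libraries and stood at 0.00524 and 0.0209 FPKM in ECsXAV, and CLDN5, a tight junction protein, was at 0.0428 and 0 against 0.0246 and 0.0377 FPKM, higher on average in CPC.

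ECsXAV replicate 2 exceeded replicate 1 for 17 of the 19 endothelial genes with a mean of at least 0.1 FPKM (89.5%), where 52.8% of all such genes did so. It is also the shallowest library. In CPC, replicate 2 was the higher for 8 of 19 (42.1%), beside 47.3% of all genes. The part of this difference between replicates in the comparisons above was not tested.

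Blood regulators were nearly silent, except for LMO2 and, at a lower level, GATA2 and ITGA2B. LMO2, a LIM-domain partner of TAL1 and GATA factors, was at 4.12 and 3.70 FPKM in ECsXAV and at 20.8 and 13.8 in CPC. Both CPC libraries stood far above both ECsXAV libraries. LMO2 was higher in CPC by 1.87 on the log2(FPKM + 1) scale (SE 0.21, 95% interval 1.33 to 2.41, limma adjusted p 0.0287), and the ratio of mean FPKM was 4.41. With any 1 library left out the difference was 1.59 to 2.15, but the limma adjusted p was 0.0657 to 0.131, so the call needs all 4 libraries. The gene lies on chromosome 11 at 33880122 to 33913623 (GRCh37, minus strand). Its leading transcript in the authors' estimates, NM_001142315, was at 3.35 and 3.0 FPKM in ECsXAV and at 18.6 and 13.2 in CPC, or 81.3%, 81.1%, 89.8% and 95.4% of the gene.

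GATA2, a factor of blood stem cells and endothelium, was at 0.459 and 0.502 FPKM in ECsXAV and at 1.24 and 1.31 in CPC, also without overlap. Its mean lay under the filter, so it was not tested. Of its transcripts, NM_032638 held only 0.0022% and 0.00011% of the gene in ECsXAV and was at 0.858 and 0.573 FPKM in CPC. NM_001145662 was at 0.459 and 0.502 FPKM in ECsXAV and at 0.387 and 0.737 in CPC. ITGA2B, the platelet integrin CD41 that also marks early blood progenitors, overlapped at 1.01 and 1.3 against 1.06 and 0.723 FPKM (log2 fold change -0.19, limma adjusted p 0.649).

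**Figure D3:**
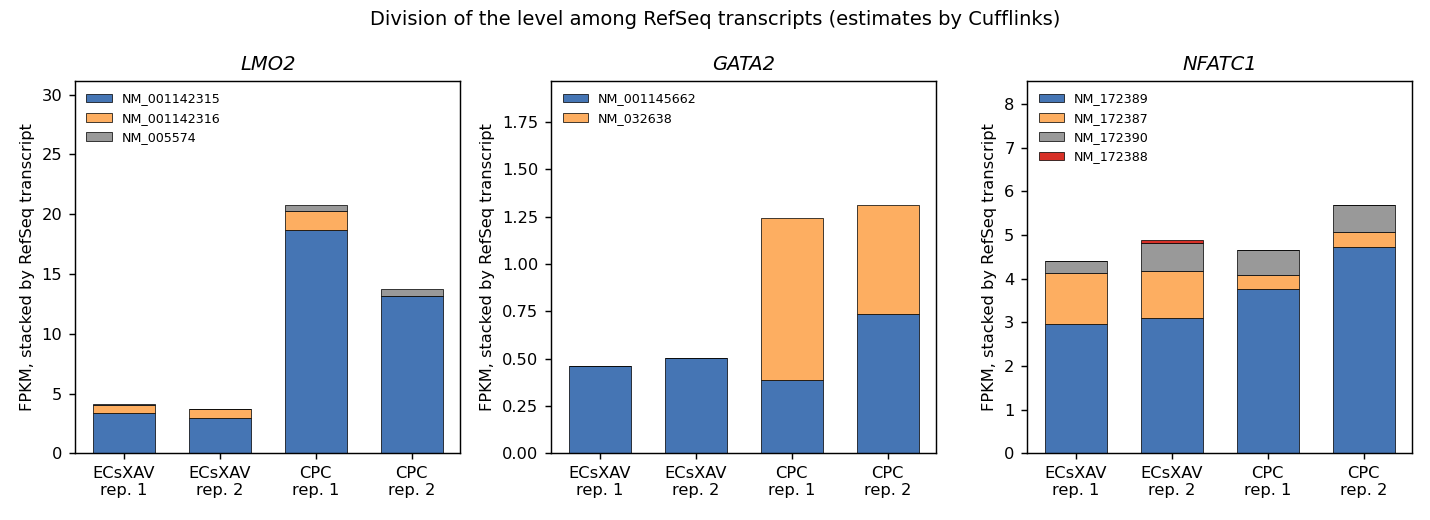
FPKM of LMO2, GATA2 and NFATC1 in each library, stacked by RefSeq transcript as estimated by Cufflinks. The taller CPC bars of LMO2 consist mostly of NM_001142315, and NM_032638 of GATA2 is seen in CPC and not in ECsXAV.

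TAL1, the partner of LMO2, was at 0.122 and 0.113 FPKM in ECsXAV and at 0.0542 and 0 in CPC, and RUNX1, which drives blood emergence from endothelium, was at 0.118 and 0.0383 against 0.0221 and 0.0225 FPKM. ECsXAV lay above for both. KLF1, an erythroid activator, overlapped at 0.0640 and 0.191 against 0.295 and 0.0802 FPKM, while higher on average in CPC. GATA1, the erythroid GATA factor, at 0.141 and 0 against 0.0407 and 0.0887 FPKM, and SPI1, the myeloid factor PU.1, at 0.150 and 0.0748 against 0.173 and 0 FPKM, overlapped. MYB and GFI1B were each above 0 in a single ECsXAV library, at 0.0315 and 0.0623 FPKM.

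Among the erythroid genes, EPOR and ALAS2 were above 1 FPKM in every library, and HBE1 was above it in ECsXAV alone. EPOR, the erythropoietin receptor, was at 10.4 and 12.2 FPKM in ECsXAV and at 14.1 and 16.7 in CPC. CPC lay above without overlap, but the log2 fold change of 0.42 (SE 0.14) had an adjusted p of 0.219 in limma. ALAS2, the erythroid enzyme that opens heme synthesis, overlapped at 2.79 and 2.00 against 2.58 and 2.64 FPKM. GYPB, a glycophorin of the red cell membrane with close relatives in the genome, was at 0.277 and 0.553 against 0.639 and 1.56 FPKM, in the ratio of 2, 2, 4 and 9 reads. CPC lay above for GYPB without overlap, as for 22.1% of all genes at 0.1 to 1 FPKM. The 4 defining erythroid markers (GYPB, ALAS2, KLF1 and GATA1) summed to 3.27 and 2.74 FPKM in ECsXAV and 3.55 and 4.38 in CPC. Of the 4, 3 were higher on average in CPC and 1 (GATA1) in ECsXAV.

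HBE1, the embryonic ε-globin on chromosome 11 at 5289575 to 5291175 (GRCh37, minus strand), was at 2.13 and 4.55 FPKM in ECsXAV and at 0.338 and 0.184 in CPC. The values stood in the ratio of 29, 31, 4 and 2 reads, and both ECsXAV libraries lay above both CPC libraries. The log2 fold change was -1.73 (SE 0.30, 95% interval -2.52 to -0.94), with a limma adjusted p of 0.066, which misses the criterion. The ratio of mean FPKM, ECsXAV over CPC, was 12.8, and this low gene is the more understated by the added 1. Leaving out ECsXAV replicate 1 gave -2.14 (limma adjusted p 0.0162) and leaving out ECsXAV replicate 2 gave -1.31 (0.0634). Without CPC replicate 1 or 2 the adjusted p was 0.186 or 0.211, the highest over the alternatives, of which the lowest was 0.00209. HBE1 crossed the threshold with a pseudocount of 0.1 (log2 fold change -3.19, limma adjusted p 0.0479) and when microRNA and small nucleolar RNA genes were left out (0.00485), an alternative chosen after seeing the data.

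The other globins stood at a few reads. HBZ, the embryonic ζ-globin, was at 0.582 and 0.465 FPKM in ECsXAV and listed at 0 in CPC. The fetal γ-globins HBG1 and HBG2 are near-identical copies whose reads may be divided arbitrarily, and their sum was 0.473 and 0.944 FPKM in ECsXAV. The α-globin copies HBA1 and HBA2 summed to 0.577 and 0.721 FPKM there. Both sums were listed at 0 in CPC. Singly, HBG1 was at 0.118 and 0, HBG2 at 0.355 and 0.944, HBA1 at 0.241 and 0.721, and HBA2 at 0.336 and 0 FPKM in ECsXAV. The 7 globins together were at 3.76 and 6.68 FPKM in ECsXAV and at 0.338 and 0.184 in CPC, and their reads summed to at least 41, 40, 4 and 2. These read numbers, here and above, are the smallest whole numbers that give the FPKM ratios once each library is scaled by its relative depth, and HBG1 and HBA2, above 0 in a single library, were set to 1. HBE1 held 56.6% and 68.1% of this sum in ECsXAV and all of it in CPC.

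**Figure D4:**
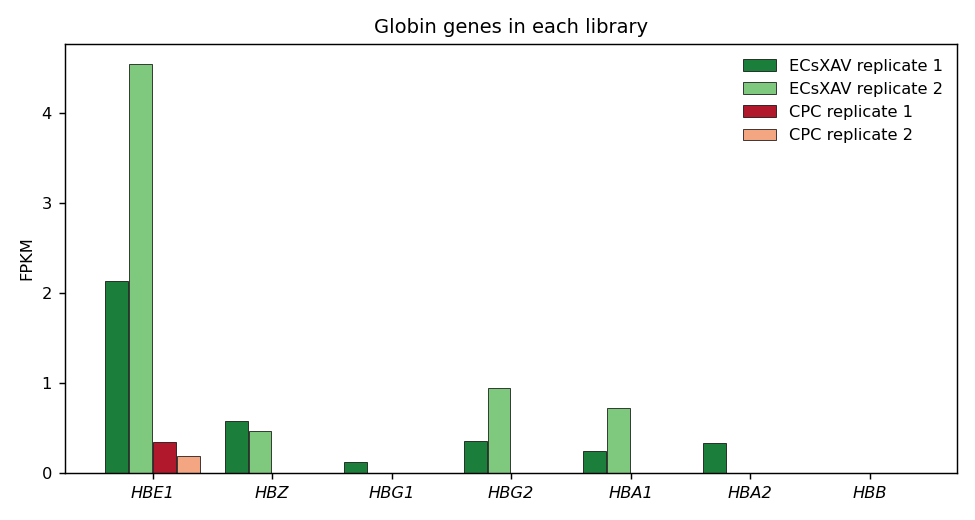
FPKM of the 7 globin genes in each library on a linear axis. HBE1 reaches 2.13 and 4.55 FPKM in ECsXAV, and of the globins only HBE1 is above 0 in CPC.

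Among the markers of other cell types, 2 of the 3 endoderm and liver genes tested passed the criterion, both higher in ECsXAV. The 6 endoderm genes summed to 36.5 and 30.2 FPKM in ECsXAV and to 16.2 and 18.3 in CPC, with ECsXAV above without overlap for 5 of 6 (25.4% of all genes at 1 FPKM and up, 29.6% at 0.1 to 1). Of these, AFP, the fetal serum protein, was at 11.4 and 9.70 against 0.199 and 0.124 FPKM, and TTR, a thyroid hormone carrier, at 3.92 and 2.23 against 0 and 0.0779 FPKM, and both passed the criterion. The 4 smooth muscle genes summed to 291 and 261 against 136 and 162 FPKM, and the 7 fibroblast or epicardial genes to 80.0 and 101 against 53.2 and 46.7 FPKM, with TAGLN, an actin-binding protein, and COL1A1, a collagen chain, past the criterion and higher in ECsXAV. ECsXAV lay above for 2 of 4 and 5 of 7 genes of these lists, and CPC for MYH11 and POSTN. The shares of all genes with ECsXAV above are those just given, and CPC lay above for 24.4% at 1 FPKM and up and 22.1% at 0.1 to 1. FOXA2, WT1 and TCF21 had means under 0.1 FPKM, where ECsXAV lay above for 508 of all 7953 genes. The part of these cell types in the values of the globins and endothelial genes was not tested. The 5 defining leukocyte markers (PTPRC, SPI1, CD14, CSF1R and LYZ) summed to 0.573 and 0.167 against 0.253 and 0.216 FPKM. The 3 pluripotency genes summed to 1.69, 2.22, 2.39 and 1.66 FPKM, nearly all of it LIN28A, with NANOG at 0 throughout.

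Of 105 other genes of these cell types, 42 were tested and 2 passed, both higher in ECsXAV, beside 1.44% of all genes in that direction. In the wider endothelial list, 17 of 47 genes were tested, 12 were higher in ECsXAV and 5 in CPC, the median log2 fold change was -0.26, and 9 had an unadjusted p under 0.05 (18.2% of all genes). TMEM88, a membrane protein that inhibits Wnt signalling, was at 19.5 and 19.4 FPKM in ECsXAV and at 6.88 and 6.90 in CPC (limma adjusted p 0.0122), and TM4SF1, a surface protein of endothelial and other cells, at 3.73 and 5.57 against 1.33 and 0.950 FPKM (limma adjusted p 0.0492). TM4SF1 lost its call with quantile normalization, and both lost theirs with any 1 library left out. TMEM88 was placed in the endothelial list by name. The paper reports the opposite order at an earlier stage of culture, with TMEM88 lower in endothelial cells than in cardiac progenitor cells. Whether the TMEM88 call reflects endothelial cells was not tested. The wider erythroid list had 8 of 20 tested, a median of -0.38 and 4 unadjusted p under 0.05. Its gene GYPC, a glycophorin of many tissues, was at 29.8 and 35.4 against 9.08 and 14.6 FPKM (limma adjusted p 0.0598). All 10 heme synthesis genes were tested and none passed, with a median of -0.12 and 1 unadjusted p under 0.05. None of the endocardial (3 tested of 7), leukocyte (2 of 14) and platelet (2 of 7) genes passed, with 1, 0 and 0 unadjusted p under 0.05.

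Promoter sequence (250 bases before the start, RefSeq, GRCh38.p14) was matched for 25 of the 43 genes, at 36 starts. A pair of short motifs was searched on both strands. GGAAG (reverse complement CTTCC), which holds the core letters bound by ETS factors, was in 85.0% of the 20 endothelial promoters, 41.7% of the 12 of blood regulators, all 4 erythroid ones and 65.1% of all 35116. The 20 come from 13 genes, and some windows of 1 gene overlap. The 4 erythroid promoters come from 3 genes, and 2 of them are overlapping windows of GYPB. AGATAA (reverse complement TTATCT), the letters bound by GATA factors, was in 4 of the 20 endothelial promoters, in 8.33% of the regulator promoters, in 3 of 4 erythroid promoters (75.0%) and in 9.17% of all. The last letters of GGAAG can overlap the first of AGATAA, and a match is a description of these windows. The promoters of FLT1 and ROBO4, endothelial genes above in ECsXAV, and of ALAS2 and EPOR, the erythroid genes detected in every library at the highest levels, are given 5′ to 3′ with matches in capitals. They lie at chr13:28495129-28495378 (FLT1), chr11:124897866-124898115 (ROBO4), chrX:55030978-55031227 (ALAS2) and chr19:11384315-11384564 (EPOR) of GRCh38.p14, all on the minus strand.
FLT1: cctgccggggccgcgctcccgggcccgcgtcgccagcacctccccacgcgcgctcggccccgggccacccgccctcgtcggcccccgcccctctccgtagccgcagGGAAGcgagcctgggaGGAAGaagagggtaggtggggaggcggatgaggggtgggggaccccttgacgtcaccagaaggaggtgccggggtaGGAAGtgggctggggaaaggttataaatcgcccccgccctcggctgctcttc
ROBO4: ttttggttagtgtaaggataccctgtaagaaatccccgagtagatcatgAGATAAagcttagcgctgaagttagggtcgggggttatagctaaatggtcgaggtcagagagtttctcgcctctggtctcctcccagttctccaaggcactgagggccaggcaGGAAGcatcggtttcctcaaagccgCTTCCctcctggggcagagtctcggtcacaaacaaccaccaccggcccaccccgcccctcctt
ALAS2: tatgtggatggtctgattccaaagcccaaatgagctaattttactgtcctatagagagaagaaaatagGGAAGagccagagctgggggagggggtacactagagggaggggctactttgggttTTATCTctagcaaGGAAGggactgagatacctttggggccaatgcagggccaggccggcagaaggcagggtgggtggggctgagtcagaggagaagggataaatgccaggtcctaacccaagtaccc
EPOR: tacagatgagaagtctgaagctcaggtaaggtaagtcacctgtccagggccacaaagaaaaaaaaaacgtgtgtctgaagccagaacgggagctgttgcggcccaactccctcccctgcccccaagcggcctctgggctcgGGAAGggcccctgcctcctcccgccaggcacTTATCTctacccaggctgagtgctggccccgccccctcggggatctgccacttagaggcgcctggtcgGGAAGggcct
FLT1 held GGAAG and no AGATAA, whereas ROBO4, ALAS2 and EPOR held both.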

How the data were processed

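The authors made poly-A libraries and deposited FPKM computed with Cufflinks on hg19, as a gene table and a RefSeq transcript table. The labels' processing notes also list TopHat 1.3.3. Counts were not used here, so a count test was not run. Each of the 43 genes had a single entry; 554 other symbols had entries for several loci, of which the highest by mean was taken.

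Groups came from the sample labels. limma 3.58.1 in R 4.3.3 was fitted to log2(FPKM + 1) of 12398 genes (mean FPKM 1 or more), with an intensity trend and Benjamini-Hochberg adjustment. FPKM of genes with 1 transcript are multiples of 1 read, and for the 22 such members above 0 the ratios, scaled by relative depth, matched whole numbers within 0.01; HBG1 and HBA2, above 0 in a single library, match by construction. The limma fit was tested on simulated data. Every one of the 43 genes was to be named, and of other lists those that pass the criterion, also under the replicate block, and cell type markers. The members and lists were chosen with earlier results of these data known. Alternatives were another pseudocount, filter, scaling and variance prior, summed loci, the transcript table, a replicate block and each library left out. Gene positions came from GENCODE release 44 on GRCh37, which gave none for PECAM1. Tables and figures used Python 3.11.15, pandas 2.3.3 and matplotlib 3.10.9.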

Additional observations from a re-analysis of the deposited data

How the results depend on the processing

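Of all genes, 266 passed the criterion (88 higher in CPC), against 20 without a filter on low FPKM (12 higher in CPC), 152 at a mean FPKM of at least 5, and 50 to 118 with a library left out. Without CPC replicate 1 or 2, 39 of 50 and 56 of 72 were higher in CPC, so the balance turned over. Of the 43 genes, 1 passed, against 2 with a pseudocount of 0.1 or, as chosen after seeing the data, without short RNA genes (LMO2 and HBE1), 0 without the filter (LMO2 adjusted p 0.0788) and 0 to 1 with a library left out, where HBE1 was the gene that passed. Of the other list genes 2 passed, against 0 without the filter, 1 at a mean of at least 5, 1 with quantile normalization, 4 without short RNA genes and 0 with any library left out. With a library left out, the lone library of its group is assumed to vary like the other group. The causes were not tested. With a library left out, the log2 fold change ran from -0.0113 to 0.412 for KDR, from -0.338 to 0.138 for PLVAP and from -0.0704 to 0.268 for ALAS2. The sign turned without ECsXAV replicate 2 for all of them and without CPC replicate 2 for PLVAP, and none passed. Under the alternatives that keep all libraries, detection at 1 FPKM in every library stayed at 8 genes and ECsXAV above without overlap at 17 or 18. Leaving a library out can only keep or raise these counts, so it does not test them. They were then 8 to 9 and 19 to 24.

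Under a block on the replicate number 176 genes passed, LMO2 among the 43 being 1 of them, and of the other list genes 2 (TMEM88 and GYPC, with TM4SF1 lost). With the block and short RNA genes left out, a choice made after seeing the data, 2 of the 43 genes and 5 of the other list genes passed. Deviations of same-numbered libraries correlated at 0.0349 (Pearson) and 0.356 (Spearman) over 12398 genes, so with 2 pairs the numbers do not establish a pairing. The depth limits values under about 0.1 FPKM to a few reads.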

Other observations

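Division of a gene among its transcripts, an estimate by Cufflinks, gave single transcripts of NFATC1, EPOR and FLT1 whose values did not overlap between the groups. The totals of these genes did not pass the criterion. Those of EPOR and FLT1 did not overlap either, in the same direction as the transcripts, whereas the NFATC1 total overlapped. NFATC1 transcript NM_172387 was at 1.18 and 1.08 FPKM in ECsXAV and at 0.325 and 0.331 in CPC, while NM_172389 was at 2.96 and 3.09 against 3.77 and 4.73 FPKM. NR_033663 of EPOR, a transcript that is not coding by its RefSeq prefix, was at 1.22 and 1.45 against 4.70 and 2.73 FPKM. FLT1 transcript NM_001160030 was at 0.559 and 0.528 FPKM in ECsXAV and held only 1.1e-07% and 4.5e-10% of the gene in CPC. The transcripts were picked because they did not overlap, and the share of all transcripts without overlap was not counted. These transcript differences were not tested.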
